A study of Mus musculus with 2 samples.

Results

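The 36 genes described here encode NRF2 and its inhibitor, the enzymes that make and recycle glutathione, the thioredoxin and peroxiredoxin systems, glutathione transferases, peroxidases and dismutases, and 4 subunits of the phagocyte NADPH oxidase. They were chosen by name as antioxidant and oxidant-producing genes and matched by gene ID to GENCODE symbols. All 36 were found among 55487 gene IDs in the count table, and 34 had 50 or more counts in at least 1 library. RNA was sequenced from sorted small peritoneal macrophages of male SWISS mice, which are outbred, at 5 weeks of age. The first library came from 102283 pooled cells of 7 mice given 20 mg/kg lipopolysaccharide (LPS) into the peritoneum, a model of endotoxemia. The second came from 66967 pooled cells of 8 mice given the same LPS and, 6 h later, 0.3 mg/kg LCC-12, a compound known to target copper in mitochondria. Every mouse was also given saline subcutaneously, 30 mL/kg at 6 h, and tissue was taken at 22 h. A group of mice without LPS was not analysed here, so both libraries come from endotoxemic mice, and by their labels the groups differ in LCC-12. With 1 library per group there was no replicate check and no test, and each difference is between these libraries.

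NRF2 is a transcription factor that KEAP1 marks for degradation until oxidants or electrophiles modify KEAP1. It then enters the nucleus, pairs with small MAF proteins and binds antioxidant response elements in front of genes for glutathione synthesis, quinone reduction and thioredoxin recycling. In macrophages these genes balance the NADPH oxidase, which moves electrons from NADPH to oxygen and makes superoxide against engulfed microbes. Superoxide dismutases turn superoxide into hydrogen peroxide, and catalase, glutathione peroxidases and peroxiredoxins remove the peroxide.

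Total counts were 50618409 for LPS and 47721888 for LPS+LCC-12. The general macrophage markers Adgre1, Csf1r, Cd68, Lyz2, Mertk, Fcgr1, Ctss and Mrc1 had between 2922 and 218056 counts in both libraries. They summed to 6085 CPM with LPS and 7885 CPM with LCC-12, where CPM is counts scaled to library size, but they mark macrophages in general and not the small type. The 9 markers of the small type summed to 843 and 1440 CPM, below the neutrophil markers in both libraries, and none was at 0 counts. Among them Ccr2 had 18229 and 17434 counts and Cd74 17850 and 35183, and most of both sums came from Ccr2 and Cd74. Irf4 had 342 and 1553 counts, Cd226 242 and 1471, and Cx3cr1 219 and 1074. Ratios of macrophage subtypes and of other cells differed between the libraries. With LCC-12, 7 of 9 small and 6 of 8 large peritoneal macrophage markers were 2-fold or more above the LPS library. Of 14 neutrophil markers 10 were at least 2-fold lower and all were below 0, and their summed level was 13806 CPM with LPS and 5437 CPM with LCC-12. Of 7 monocyte markers 5 were at least 2-fold lower, with sums of 4924 and 3063 CPM. None of the 14 neutrophil markers was at 0 counts in either library. In pooled RNA, fewer cells of a type and less RNA per cell cannot be told apart.

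Of the genes described here, 3 differed by at least 2-fold, and 2 of these were lower with LCC-12. Slc7a11, the cystine importer, and Nqo1, a quinone reductase, were lower, and Gstp1, a glutathione transferase of the pi class, was higher. Their proximal promoters are shown because these genes lay farthest from 0 in opposite directions. Prdx1, which differed by less than 1.5-fold, is shown beside them because its window holds an antioxidant response element core. Each sequence is the 250 bases before the RefSeq start, from 5′ to 3′ on the strand of the gene (GRCm38.p6). Capitals mark matches on either strand to the antioxidant response element core (TGACNNNGC), to the AP-1 site (TGACTCA) or to the amino acid response element core (TGATGNAA), which ATF4 is known to bind.
Slc7a11 promoter, chr3:50443614-50443863, minus strand: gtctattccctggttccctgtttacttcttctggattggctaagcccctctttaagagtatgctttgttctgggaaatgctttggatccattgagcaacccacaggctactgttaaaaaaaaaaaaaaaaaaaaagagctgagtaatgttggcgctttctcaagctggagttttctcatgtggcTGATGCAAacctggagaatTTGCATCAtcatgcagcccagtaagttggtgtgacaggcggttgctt
Nqo1 promoter, chr8:107403206-107403455, minus strand: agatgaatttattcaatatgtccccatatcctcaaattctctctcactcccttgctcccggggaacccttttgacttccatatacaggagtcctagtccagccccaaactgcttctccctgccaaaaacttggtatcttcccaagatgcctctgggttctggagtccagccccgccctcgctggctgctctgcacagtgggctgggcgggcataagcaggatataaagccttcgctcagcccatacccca
Gstp1 promoter, chr19:4037913-4038162, minus strand: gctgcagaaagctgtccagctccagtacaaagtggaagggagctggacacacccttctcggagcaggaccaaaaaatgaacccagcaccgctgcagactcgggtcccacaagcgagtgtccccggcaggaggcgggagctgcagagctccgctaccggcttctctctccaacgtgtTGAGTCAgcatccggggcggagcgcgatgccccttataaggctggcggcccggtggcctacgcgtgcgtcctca
Prdx1 promoter, chr4:116685349-116685598, plus strand: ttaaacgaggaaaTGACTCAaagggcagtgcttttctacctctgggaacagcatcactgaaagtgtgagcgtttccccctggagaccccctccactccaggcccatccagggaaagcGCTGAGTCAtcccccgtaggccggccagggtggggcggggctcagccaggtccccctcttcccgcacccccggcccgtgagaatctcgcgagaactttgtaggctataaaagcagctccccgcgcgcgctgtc

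The Slc7a11 sequence held 2 amino acid response element cores, beginning 66 and 47 bases before the start on opposite strands, and no antioxidant response element core. The Gstp1 sequence held 1 AP-1 site, beginning 74 bases before the start. The letters there read TGAGTCAgc. Variants of TGACNNNGC, such as one with G in place of its C before NNN, were not searched in any gene. The Nqo1 window held none of these motifs, which says only that these letters are not within it. In Prdx1 the antioxidant response element core at 133 bases overlapped the AP-1 site at 131 bases, and a second AP-1 site lay at 237 bases. Windows reaching from 250 bases before to 50 bases after a start were found for 30 of the 36 genes. An antioxidant response element core was present in 8 of these 30 genes (26.7%) and in 14.0% of 27025 genes with such windows. The 8 genes were Nfe2l2, Blvra, Srxn1, Gclm, Prdx1, Mgst1, Txnrd1 and Sod1. None of the 8 differed by 2-fold, beside 10.7% of all genes with 50 or more counts. At that share, 8 genes are too few to read a difference from. AP-1 sites were present in 5 of the 30 genes (16.7%) against 5.95% of all, and amino acid response element cores in Slc7a11 alone (3.33%) against 4.51%. Matches of this kind describe letters and not bound sites. The 30 genes were chosen by name for their roles. Their higher antioxidant response element and AP-1 shares are therefore not an independent result.

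Levels were compared between genes as CPM per kb of exons, and the spread among the 36 genes was wide. The length is the union of all annotated exons and can exceed that of the transcripts present. Ranks and level ratios between genes are therefore approximate. Gpx1, the cytosolic glutathione peroxidase that reduces hydrogen peroxide, was the highest in both libraries, at 985 CPM per kb with LPS and 1157 with LPS+LCC-12. The next 4 with LPS were the oxidase genes, Ncf1 at 359, Cyba at 312, Cybb at 254 and Ncf4 at 220 CPM per kb. The mitochondrial and peroxisomal peroxiredoxin gene Prdx5 followed at 212 and 207 CPM per kb, while Gpx4, which reduces lipid peroxides, was at 27.6 and 33.8. At the low end, Sod3, the extracellular dismutase, had 15 and 12 counts and Mgst2, a microsomal glutathione transferase, 37 and 16, both under the minimum of 50 counts. The genes of glutathione synthesis were also low, with Gclc at 5.44 and 5.97, Gclm at 3.39 and 3.01 CPM per kb and Gss lower than both. Gstp1 moved from rank 11 to rank 7 of the 36 and Slc7a11 from rank 27 to rank 32. The share of all counts on these genes was 0.812% for LPS and 0.768% for LPS+LCC-12.

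**Figure D1:**
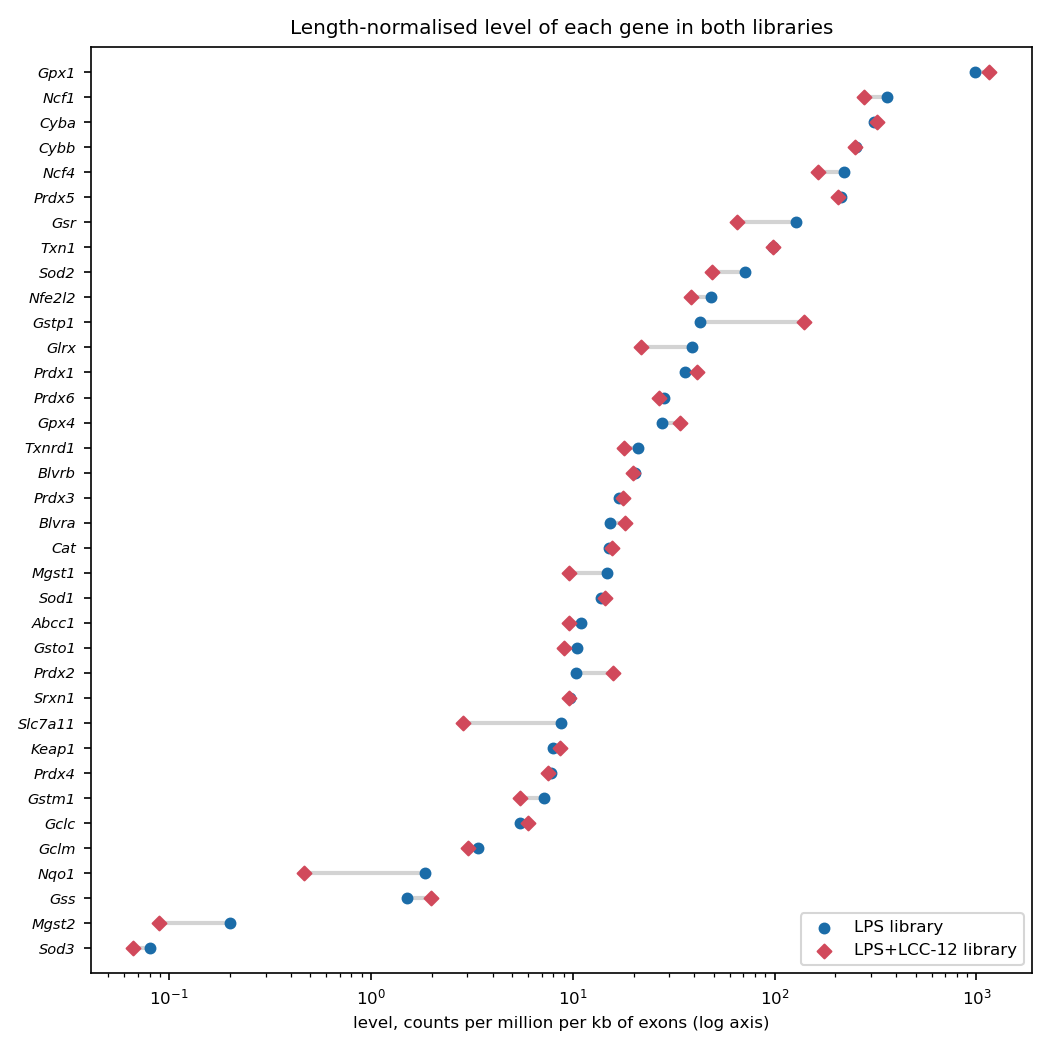
Level of each of the 36 genes in CPM per kb of exons (log axis), ordered by the LPS library. Circles are the LPS library and diamonds the LPS+LCC-12 library, 1 library each. Gpx1 and the 4 oxidase genes are at the top, and the longest lines join the points of Nqo1, Slc7a11 and Gstp1.

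Ratios are given as log2 of LPS+LCC-12 over LPS, each with an exact 95% interval from the split of the counts (Clopper-Pearson) that covers counting error only. Among the 34 genes with 50 or more counts, 2 were at least 2-fold lower (5.88%), beside 6.65% of 13482 genes with that many counts and 4.46% of 11220 protein-coding genes. At least 2-fold higher was 1 gene (2.94%), beside 4.01% of all and 3.81% of protein-coding genes. At the smaller limit of 1.5-fold either way there were 7 genes (20.6%), beside 23.0%, with 5 lower beside 13.3% and 2 higher beside 9.67%. The 2-fold and 1.5-fold shares were near those of all genes. The median log2 ratio of the 34 genes was -0.04, and over all genes it was 0.02. Ratios were below 0 for 21 genes and above 0 for 13, beside 47.6% of all genes below 0. Of these 21, 6 lay near 0 and changed sign with the scaling, so the split depends on it. The interval held 0 for 7 of the 34, beside 30.7% of all genes.

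**Figure D2:**
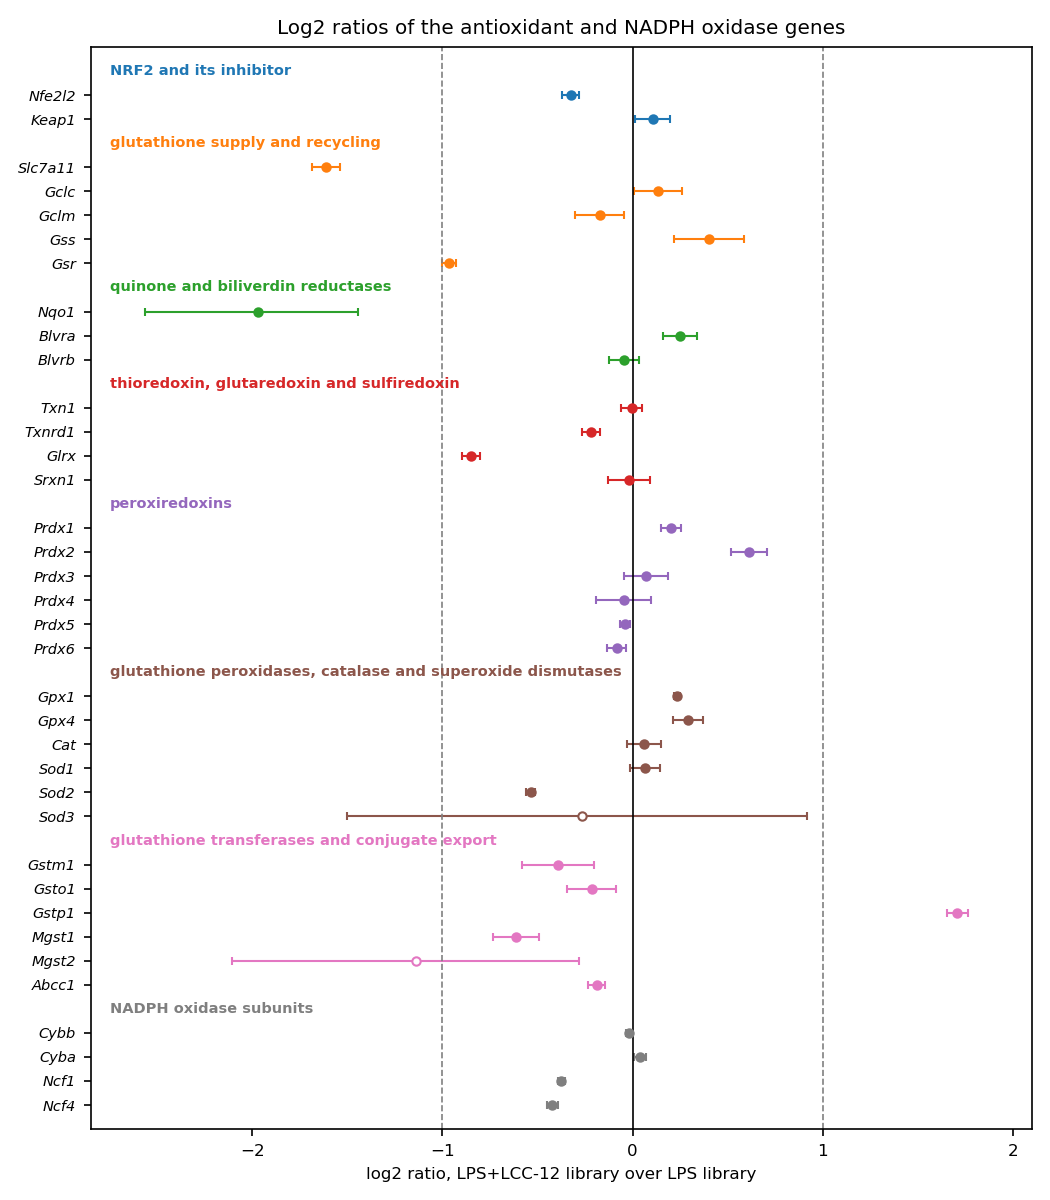
Log2 ratio (LPS+LCC-12 over LPS) of each gene, by role. Points are 1 library against 1 library, bars are 95% counting intervals, open points (Sod3 and Mgst2) have fewer than 50 counts, and dashed lines mark 2-fold. Slc7a11 and Nqo1 lie left of the lines, Gstp1 lies right of them, and Gsr lies next to the left line.

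Nfe2l2, which encodes NRF2, had 9190 counts in the first library and 7101 in the second (chromosome 2, 75675513 to 75704641, GRCm38). Its log2 ratio was -0.33 (-0.37 to -0.28), a 1.25-fold difference. Keap1, which encodes the inhibitor, had 1874 and 1954 counts and a log2 ratio of 0.11 (0.01 to 0.20). Nfe2l2 stood at 6.06 times the length-normalised level of Keap1 with LPS and 4.49 times with LPS+LCC-12. An antisense gene, Gm16754, overlaps Keap1 and held 247 and 211 counts. Whether the counting used strand is not given in the sources used here, although the kit marks it.

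In glutathione supply and recycling, 5 genes ranged from -1.61 to 0.40. Slc7a11, the subunit of the cystine and glutamate exchanger that carries the substrate (ENSMUSG00000027737, chromosome 3, 49892526 to 50443614), had 6091 and 1928 counts, in the order LPS and LPS+LCC-12 used throughout. It was 3.06-fold lower, with a log2 ratio of -1.61 (-1.69 to -1.54), and 2.40% of all genes with 50 or more counts had a lower ratio. Its partner chain Slc3a2, taken for comparison after its values were seen, had 6355 and 6941 counts and a log2 ratio of 0.17 (0.12 to 0.22). Of both chains, only Slc7a11 was lower with LCC-12. Its ratio lay within the range of the 14 neutrophil markers, -2.31 to -0.12. It also lay within those of the monocyte markers (-1.83 to -0.03) and of the mast cell markers with 50 or more counts (-1.95 to -1.22). These ranges are wide and overlap. The part of other cells in the Slc7a11 value was not tested.

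Gsr, glutathione reductase, which returns oxidised glutathione to its reduced form with NADPH (ENSMUSG00000031584, chromosome 8, 33652523 to 33698163), had 17576 and 8712 counts. It was 1.95-fold lower, a log2 ratio of -0.97 (-1.004 to -0.93), just short of 2-fold. It passed that limit with upper-quartile scaling. The enzymes of synthesis itself lay closer to 0. The catalytic subunit of glutamate-cysteine ligase, Gclc, had 1024 and 1088 counts and its modifier subunit Gclm 1066 and 916, with log2 ratios of 0.13 and -0.17. Gss, glutathione synthetase, had 443 and 567 counts and the highest ratio of the group, 0.40 (0.22 to 0.58). Acss2 overlaps Gss on the opposite strand with 215 and 372 counts, so reads of these genes could not be told apart without strand. Summed over the 5 genes, the level was 525 CPM with LPS and 273 with LPS+LCC-12, and most of both sums came from Slc7a11 and Gsr.

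Nqo1, which reduces quinones by a transfer of electron pairs and is widely used as a readout of NRF2, had few counts, namely 143 and 35 (ENSMUSG00000003849, chromosome 8, 107388225 to 107403206). At 3.92-fold lower it had the lowest ratio among the 34 genes, -1.97 on the log2 scale (-2.56 to -1.44). Markers of 3 other cell types were lower beside it. Of those with 50 or more counts, all 4 mesothelial markers, 3 of 4 fibroblast markers and all 5 mast cell markers were at least 2-fold lower, with median log2 ratios of -3.40, -2.39 and -1.66. The summed mesothelial level was 7.65 CPM with LPS and 1.32 with LCC-12, the fibroblast level 12.4 and 3.64, and the mast cell level 212 and 67.1. Most of the mast cell sum was the 1 gene Hdc, at 197 and 62.3 CPM. Upk3b, a mesothelial marker, had 129 and 31 counts. Wt1 had 8 and 0 counts and Pdgfra 18 and 0, both under the minimum of 50. The part of such cells in the Nqo1 value was not tested. With a minimum of 200 counts Nqo1 was not read, and Slc7a11 was then the only gene of the 36 at least 2-fold lower. The biliverdin reductases, which act after heme oxygenase, were near 0. Blvra had 1857 and 2136 counts and a log2 ratio of 0.25 (0.16 to 0.34), and Blvrb had 2835 and 2662 and -0.04 (-0.12 to 0.03).

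Among thioredoxin and glutaredoxin genes, Glrx had the lowest ratio of the 4. Glrx, the cytosolic glutaredoxin that removes glutathione from protein thiols (chromosome 13, 75839868 to 75850154), had 10709 and 5758 counts. Its log2 ratio was -0.85 (-0.90 to -0.80), 1.80-fold lower. Txn1, thioredoxin itself, had 5166 and 4984 counts and a log2 ratio of -0.01, with an interval of -0.06 to 0.05 that holds 0. Srxn1, sulfiredoxin, which repairs overoxidised peroxiredoxins and is a well-known NRF2 target, was also within counting error with 1365 and 1306 counts (-0.02, -0.13 to 0.09). Txnrd1, the cytosolic thioredoxin reductase, a selenoprotein, had 7410 and 6168 counts and -0.22 (-0.27 to -0.17).

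The 6 peroxiredoxin genes, which encode thiol peroxidases of the cytosol, mitochondria and endoplasmic reticulum, had a median log2 ratio of 0.02 and summed to 772 and 786 CPM. Prdx2 had the highest ratio of them, with 1582 and 2342 counts and a log2 ratio of 0.61 (0.52 to 0.71), 1.53-fold higher. Prdx2 overlaps Junb and Rnaseh2a on the opposite strand (chromosome 8, 84969587 to 84974834). Junb held 16012 and 14156 counts, and Rnaseh2a 398 and 603. Prdx1 was at 0.20 (0.15 to 0.25), the mitochondrial Prdx3 at 0.07 and the secretory-pathway Prdx4 at -0.05, the last 2 within counting error. Prdx5 had 22670 and 21384 counts and -0.04, and Prdx6, which uses glutathione in its cycle, had the lowest ratio, -0.08 (-0.13 to -0.03).

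Of the peroxidase, catalase and dismutase genes, Sod2 was the one that differed most. Sod2, the mitochondrial manganese dismutase that inflammatory signals are known to induce (chromosome 17, 13006846 to 13040063), had 35496 and 23708 counts. Its log2 ratio was -0.54 (-0.56 to -0.51), 1.45-fold lower. The cytosolic copper-zinc dismutase Sod1 had 2742 and 2778 counts and 0.06 (-0.01 to 0.14), within counting error. Scaf4 overlaps Sod1 on the opposite strand with 2837 and 3307 counts. The length-normalised level of Sod2 was 5.14 times that of Sod1 with LPS and 3.39 times with LPS+LCC-12. These ratios rest on annotated exon lengths of 10008 bases for Sod2 and 3970 for Sod1. Cat, catalase, had 1968 and 1986 counts and 0.06 (-0.03 to 0.15). Gpx4 had 2375 and 2818 counts and the highest ratio of this group, 0.29 (0.21 to 0.37), and Gpx1 had 70876 and 80642 counts and 0.23 (0.22 to 0.25).

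Glutathione transferases differed in both directions. Gstp1, which joins glutathione to electrophiles (ENSMUSG00000060803, chromosome 19, 4035407 to 4037985), had 3317 and 10493 counts. It was 3.27-fold higher, with a log2 ratio of 1.71 (1.65 to 1.76), and 98.8% of all genes with 50 or more counts had a lower ratio. Its paralogs Gstp2 and Gstp3 had fewer counts and other ratios, and how reads shared between paralogs were counted is not given in the sources used here. Gstp2 had 54 and 82 counts and a log2 ratio of 0.64, and Gstp3 had 186 and 69 counts and was 2.60-fold lower. Summed over the 3 genes, 3557 and 10644 counts gave a log2 ratio of 1.63 (1.57 to 1.68), a sum formed after the data were seen. The other transferases of the list were all below 0. Mgst1, a microsomal transferase and peroxidase (chromosome 6, 138140316 to 138156755), had the lowest ratio of this group among genes with 50 or more counts. It had 1477 and 936 counts and -0.61 (-0.73 to -0.49), 1.53-fold lower. Gstm1 had 531 and 392 counts and -0.39, and Gsto1 1055 and 880 and -0.22. Abcc1, the pump that exports glutathione and its conjugates, had 8262 and 7018 counts and -0.19 (-0.24 to -0.14). Mgst2, with 37 and 16 counts, had -1.14 (-2.11 to -0.28). Gstp1 stood at 5.94 times the length-normalised level of Gstm1 with LPS and at 25.5 times with LPS+LCC-12. The macrophage subtype markers that were higher beside Gstp1 included Timd4 of the large type, with 318 and 5056 counts, and Retnla of the small type, with 356 and 2187. At least 2-fold higher were 7 of 9 small-type and 6 of 8 large-type markers. The rest were Ccr2 (-0.02) and Itgax (0.14) of the small type, and Gata6 (0.49) and Selp (-0.24) of the large type. The part of macrophage subtypes in the Gstp1 value was not tested.

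The membrane and cytosolic subunits of the NADPH oxidase had different ratios. Cybb, which encodes gp91phox, the chain that carries the electrons (chromosome X, 9435252 to 9487771), had 73706 and 70432 counts. Its log2 ratio was -0.02 (-0.034 to -0.005), which changed sign with the scaling (-0.05 to 0.04). Cyba, which encodes its membrane partner p22phox (chromosome 8, 122424776 to 122432930), had 16183 and 16114 counts and 0.04 (0.01 to 0.07). Both membrane chains summed to a log2 ratio of -0.01 (-0.022 to 0.005).

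Ncf1, which encodes p47phox, the organiser that moves to the membrane on activation (chromosome 5, 134220053 to 134229625), had 65716 and 49120 counts. Its log2 ratio was -0.37 (-0.39 to -0.36). Ncf4, which encodes p40phox (chromosome 15, 78244801 to 78262580), had 22216 and 16053 counts and -0.42 (-0.45 to -0.39), 1.34-fold lower. Summed, these cytosolic subunits had -0.39 (-0.40 to -0.37), apart from the membrane pair by more than counting error and by less than 1.5-fold. Rac2, the GTPase of the oxidase in blood cells, had 30806 and 20657 counts and -0.53 (-0.56 to -0.50), whereas the widely expressed Rac1 had 0.14 and Rap1a 0.56. Cybc1, a chaperone of the membrane chains, had -0.09. Ncf1 and Ncf4 were lower in the library whose neutrophil markers were also lower, while Cybb (-0.02) and Cyba (0.04) had ratios near 0. The 14 neutrophil markers had a median log2 ratio of -1.23 and ranged from -2.31 to -0.12. The monocyte markers had a median of -1.13. Neutrophils are known to carry this oxidase, and their part in the oxidase, Gsr and Glrx values was not tested. The oxidases of other tissues were near or at the limit of detection. Nox3 and Nox4 had 0 counts in both libraries, which allows up to 3 counts, and Nox1 had 15 and 2.

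**Figure D3:**
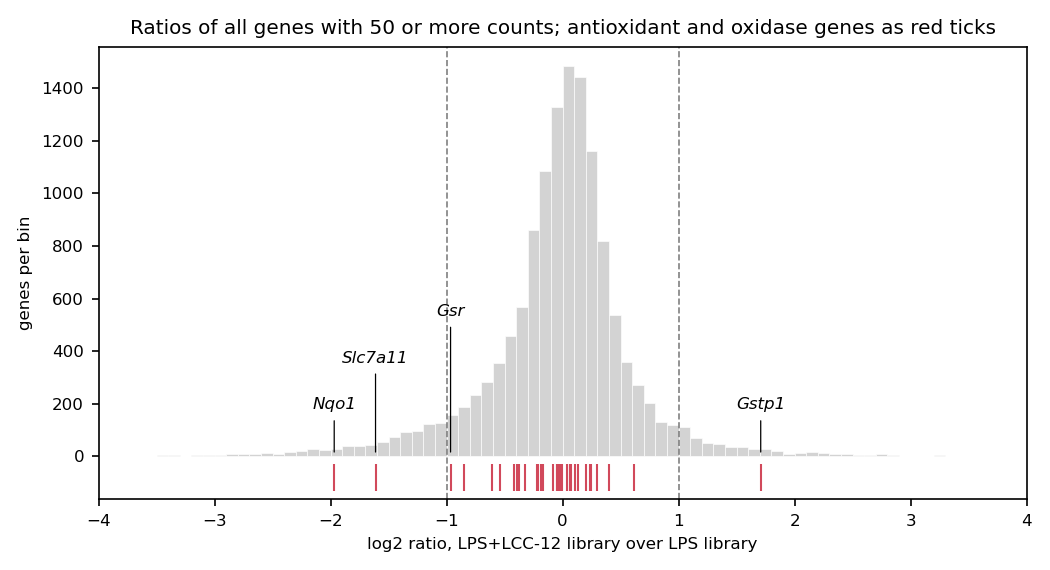
Distribution of log2 ratios over 13482 genes with 50 or more counts, in bins of 0.1; 32 genes lie outside the plotted range. Red ticks are the 34 genes described here with that many counts, and dashed lines mark 2-fold. Most ticks lie in the centre of the distribution, with Nqo1, Slc7a11, Gsr and Gstp1 toward its edges.

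Other genes of these pathways were read from 7 lists with 97 genes, of which 71 had 50 or more counts. At least 2-fold lower were 6 of the 71 (8.45%, beside 6.65% of all genes) and at least 2-fold higher was 1 (1.41%, beside 4.01%). Scaled by total counts, or with mitochondrial and the 100 most abundant genes left out of the totals, 3 were at least 2-fold higher, Akr1b8, Idh1 and Sesn1. The median log2 ratio of the 71 genes was -0.01. In glutathione metabolism, Ggt1 and Ggt5, the gamma-glutamyl transferases that break down glutathione outside the cell, were both lower. Ggt1 with 2036 and 486 counts was 4.05-fold lower, a log2 ratio of -2.02 (-2.17 to -1.88). Ggt5 with 1283 and 573 counts was 2.17-fold lower, a log2 ratio of -1.12 (-1.26 to -0.97).

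Among other NRF2 targets, the members of the list lay on both sides of 0, with 9 of 19 below and 10 above. Hmox1, heme oxygenase, had 9803 and 10860 counts and a log2 ratio of 0.19 (0.15 to 0.23), opposite in sign to Nqo1. Fth1, the ferritin heavy chain, had 343533 and 138793 counts and was 2.40-fold lower, whereas the light chain Ftl1 had 42385 and 36275 counts and -0.18. Cbr3, a carbonyl reductase, had 366 and 151 counts and was 2.34-fold lower, and Akr1b8, an aldo-keto reductase, had 109 and 250 counts and was 2.36-fold higher. Idh1, which makes NADPH in the cytosol, had 2818 and 5367 counts and 0.98. All 11 other regulators of NRF2 were within 1.5-fold. In the thioredoxin and repair list Msrb1, a methionine sulfoxide reductase, had 8890 and 4719 counts and -0.87, while Sesn1, a sestrin, had 682 and 1288 and 0.96. Gsto2, with 57 and 25 counts, was 2.18-fold lower. Ftl1, Idh1, Msrb1, Sesn1, Rac1, Rap1a, Cybc1, Gstp2 and the Nox genes were named after their values were seen.

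**Figure D4:**
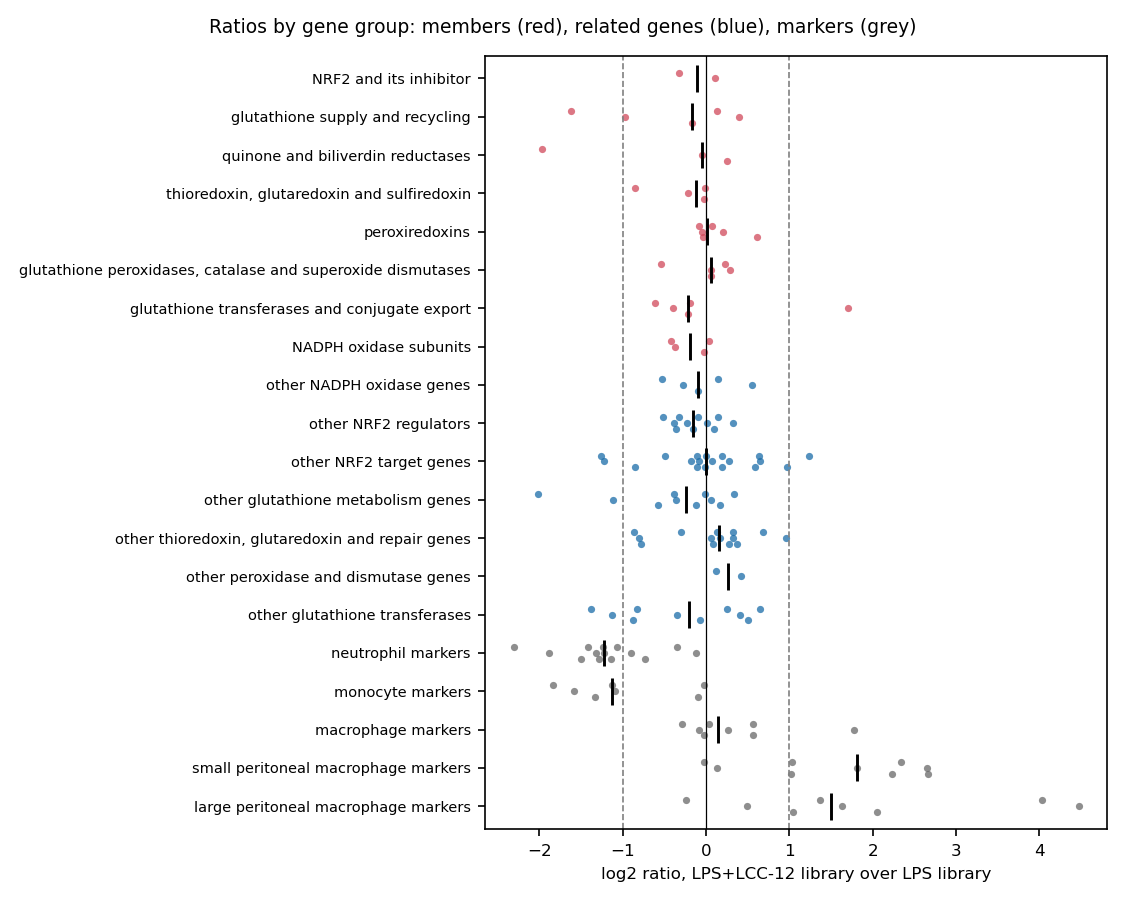
Log2 ratios of genes with 50 or more counts, by group: genes described here (red), other genes of the same pathways (blue) and cell type markers (grey). Each point is 1 gene in 1 library against 1 library, black bars are group medians, and dashed lines mark 2-fold. Medians of the red and blue groups lie between -0.24 and 0.27, those of the neutrophil and monocyte markers at -1.23 and -1.13, and those of the small and large peritoneal macrophage markers above 1.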

How the data were processed

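Gene counts of 2 libraries of sorted small peritoneal macrophages were analysed, 1 each for LPS and LPS+LCC-12. The authors deposited raw gene counts, whole numbers whose totals differ between the libraries. A stranded kit with ribosomal depletion was used on 10 ng of RNA with 12 PCR cycles, per the labels' protocols, although the molecule field names polyA RNA. The submitters' processing notes name STAR and mm10. How reads were counted, with which annotation and whether by strand, is not given in the sources used here. Of 55487 gene IDs, 55394 matched GENCODE M21 (GRCm38), and the columns were tied to groups by library codes in the labels.

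Scaling used TMM from edgeR 4.0.16 (R 4.3.3), and 0.5 counts were added in proportion to scaled size. CPM uses the scaled size, and exon length is the union of annotated exons. With 1 library per group no test was run. A gene was called at 2-fold if either library had at least 50 counts. Intervals and the floor of 3 counts for a count of 0 cover counting error only. PCR copies are not independent molecules, so the intervals and the floor may understate even that error. The code was tested on simulated data. Members, lists and rules were chosen with earlier results of these data known. Values are given in full for members at least 1.5-fold apart, for the highest and lowest of each group, for NRF2, KEAP1 and oxidase genes, and for related genes past 2-fold, with Hmox1 and Rac2 always; 1 gene that the rule takes is not reported here. Alternatives were 4 scalings (among them DESeq2 1.42.0), 5 added counts, minimums of 1 and 200 counts, 1.5-fold and 3-fold limits, intervals wholly past 2-fold, means, and the Gstp genes summed. Markers of mast, mesothelial, fibroblast, B, T, NK, dendritic, eosinophil and erythroid cells were also listed. Summed from LPS to LPS+LCC-12 they had 212 and 67.1 CPM (mast), 7.65 and 1.32 (mesothelial), 12.4 and 3.64 (fibroblast), 184 and 217 (B), 3.34 and 1.82 (T), 2.48 and 1.94 (NK), 5.57 and 5.00 (dendritic), 1.56 and 1.98 (eosinophil) and 0.92 and 0.70 (erythroid). Most of the mast cell sum was Hdc.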

Additional observations from a re-analysis of the deposited data

How the results depend on the processing

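No paired analysis was possible because each group is 1 library, and for the same reason no replicate could be left out. Across scalings all ratios shifted by at most 0.06 (log2). The member genes at least 2-fold lower numbered 2, and 3 with upper-quartile scaling (Gsr) or no count minimum (Mgst2), 1 with a minimum of 200 counts and 5 at 1.5-fold. The 1 member at least 2-fold higher became 2 at 1.5-fold. The members' median of -0.04 became 0.019 when mitochondrial and the 100 most abundant genes were left out of the totals, and their mean was -0.15. The 7 related genes past 2-fold became 19 with a minimum of 1 count, 5 with a minimum of 200, 9 (3 higher) with total counts or the reduced totals, 19 at 1.5-fold, 1 at 3-fold and 2 with the whole interval past 2-fold. Of 186 alternative values of 37 named genes, 42 lay outside the counting interval of the main value and none of the genes past 2-fold changed sign. Blvrb, Txn1, Srxn1, Prdx4, Prdx5 and Cybb, all near 0, changed sign with the scaling. These are effects of the altered scale, minimum or limit; variation between pools of mice was not measured, and depth limits only the genes with few counts, such as Nqo1, Mgst2 and Sod3.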
